A study of Mus musculus with 2 samples.

Results

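Of the 6629 peaks of p300 mapped in the dorsal cerebral wall of the mouse embryo, 1561 had their midpoint inside a protein-coding gene that spans 200 kb or more, and these peaks are described here. They were chosen by position alone, from the gene rows of the GENCODE vM1 annotation on the mm9 assembly, and no property of the peak entered the choice. They made up 55.1% (95% interval 53.3 to 57.0) of the 2831 peaks inside protein-coding genes and 23.5% (22.5 to 24.6) of all peaks. The other 1270 genic peaks lay only in shorter genes, and 3798 peaks lay outside protein-coding genes. The genes of 200 kb or more, called long genes below, numbered 954, with a median span of 320 kb.

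The tissue came from untreated Swiss Webster mouse embryos of embryonic day 14.5 (E14.5) with no genetic change. At this age the dorsal cerebral wall is forming the cortical layers. Chromatin bound by p300 was precipitated with an antibody and sequenced (ChIP-seq), and input chromatin served as control. There was 1 p300 library and 1 input library, so no value has a replicate, intervals cover counting error only, and since peaks lie in clusters the intervals are too narrow. The tissue is a mixture of progenitors, migrating cells and neurons of several embryos, and a peak list cannot tell which of these cells carried the protein. The list gives the position of each peak and no height or read count, so no peak could be weighed by its depth, and the input library was not analysed here.

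p300 is a transcriptional co-activator and a histone acetyltransferase that is recruited to active enhancers by transcription factors bound there. Enhancers often lie in introns, either of the gene they regulate or of a neighbour, and act on start sites at a distance. Many of the longest genes of the mammalian genome are expressed in neurons and encode adhesion molecules, axon guidance receptors, synaptic proteins and transcription factors, with most of their span in introns.

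Stretches of 9 peaks are shown as examples of these sequences, chosen for their assays, their width or their motifs and so not typical of all peaks. Each stretch has 180 bases, is given 5′ to 3′ on the plus strand of mm9, and was taken where it holds the most kinds of motif of its peak. Capitals mark every match, on either strand, to 10 short motifs: the E-boxes CAGATG and CAGCTG (basic helix-loop-helix factors), TAATTA (homeodomain factors), TGGC and GCCA with 5 bases of any kind between them (Nfi factors, the 5 bases in capitals too), ACAAAG and ACAATG (Sox factors), ATGCAAAT (POU factors), GGTGTGA (T-box factors), GTTGCC (part of the Rfx site) and TGANTCA (AP-1). A match describes the letters and does not show that a factor binds. The first pair are the elements elt5 and elt8, which the study cloned for enhancer assays and which overlap peaks in later introns of Auts2. The study reports that both were reproducibly active in the developing neocortex of transgenic embryos. They are followed by the most motif-rich peaks of Auts2, Gm20388 and Fgfr2, the genes with the most peaks, by a peak of unusual width, 3501 bp, in Etl4, and by peaks of Nfib, Odz4 and Robo2, added after their values were seen.
Auts2 elt5, chr5:132277911-132278090: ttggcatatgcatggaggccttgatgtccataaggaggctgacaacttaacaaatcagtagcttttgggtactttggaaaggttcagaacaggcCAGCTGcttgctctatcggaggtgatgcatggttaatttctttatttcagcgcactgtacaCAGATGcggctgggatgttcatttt
Auts2 elt8, chr5:132505101-132505280: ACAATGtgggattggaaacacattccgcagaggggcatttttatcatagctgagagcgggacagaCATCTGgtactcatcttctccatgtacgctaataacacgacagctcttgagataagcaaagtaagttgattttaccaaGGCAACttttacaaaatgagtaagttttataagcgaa
Auts2, chr5:132001026-132001205: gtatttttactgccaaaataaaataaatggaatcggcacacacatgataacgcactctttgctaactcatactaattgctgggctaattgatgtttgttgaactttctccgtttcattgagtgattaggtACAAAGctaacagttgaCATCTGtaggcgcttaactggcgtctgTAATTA
Nfib, chr4:82336995-82337174: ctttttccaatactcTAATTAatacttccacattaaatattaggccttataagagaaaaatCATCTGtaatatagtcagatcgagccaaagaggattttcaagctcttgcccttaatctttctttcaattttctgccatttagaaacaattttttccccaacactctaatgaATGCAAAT
Odz4, chr7:104013961-104014140: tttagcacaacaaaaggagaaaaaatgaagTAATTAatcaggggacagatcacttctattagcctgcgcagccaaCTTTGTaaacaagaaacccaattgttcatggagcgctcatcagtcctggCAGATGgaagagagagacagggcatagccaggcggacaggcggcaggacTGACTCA
Robo2, chr16:74201020-74201199: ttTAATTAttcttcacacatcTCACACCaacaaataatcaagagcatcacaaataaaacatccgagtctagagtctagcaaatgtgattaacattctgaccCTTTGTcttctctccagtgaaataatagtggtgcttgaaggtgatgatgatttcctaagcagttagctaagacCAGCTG
Etl4, chr2:20468073-20468252: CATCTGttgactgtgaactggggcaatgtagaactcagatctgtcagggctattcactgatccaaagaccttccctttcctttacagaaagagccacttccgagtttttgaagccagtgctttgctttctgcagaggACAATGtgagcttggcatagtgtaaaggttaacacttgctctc
Gm20388, chr8:123072136-123072315: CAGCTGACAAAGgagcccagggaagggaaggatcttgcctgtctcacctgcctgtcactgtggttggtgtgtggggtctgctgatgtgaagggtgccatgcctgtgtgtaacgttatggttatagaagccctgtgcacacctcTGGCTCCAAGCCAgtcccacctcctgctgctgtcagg
Fgfr2, chr7:139475940-139476119: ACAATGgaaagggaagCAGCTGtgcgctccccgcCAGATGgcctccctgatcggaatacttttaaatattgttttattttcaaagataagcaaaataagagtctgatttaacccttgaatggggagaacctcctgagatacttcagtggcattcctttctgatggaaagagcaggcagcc

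The primers of the cloned elements placed elt5 at chr5:132277409-132278909 and elt8 at chr5:132504759-132506267. The stretch of elt5 held both E-boxes and that of elt8 a CAGATG E-box, a Sox motif and the Rfx motif. The Nfib stretch paired a homeodomain motif with a CAGATG E-box and an octamer, and the Robo2 stretch a homeodomain motif with a CAGCTG E-box, a T-box motif and a Sox motif. The Gm20388 stretch was the only one of the 9 with the Nfi full site. The stretches of Auts2, Odz4 and Etl4 lay in later introns and that of Robo2 in its second intron, whereas those of Nfib and Fgfr2 lay inside the gene row but outside the main transcript, here the one whose coding sequence is longest.

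Long genes held more p300 peaks per unit of sequence than shorter genes or the sequence between genes. They covered 399 Mb, 15.6% of the assembled genome, with 3.91 peaks per Mb (3.72 to 4.11). Shorter protein-coding genes had 2.14 peaks per Mb (2.03 to 2.27), and sequence outside protein-coding genes had 2.42 (2.35 to 2.5). The ratio of long to shorter genes was 1.82. The authors removed peaks at exons and within 2.5 kb of a start site, and such sequence is a larger share of short genes. Over the bases outside exons and more than 2.5 kb from any GENCODE start site the densities were 4.2 peaks per Mb in long genes, 2.99 in shorter genes and 2.58 outside genes, and the ratio of long to shorter genes was 1.4.

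The density did not keep growing with span, as the plot of density by gene span shows. Genes under 50 kb had 0.979 peaks per Mb (0.859 to 1.11), genes of 50 to 100 kb had 2.42, and genes of 100 to 200 kb had 3.35 (3.10 to 3.61). Among long genes it was 3.85 (3.48 to 4.25) at 200 to 300 kb, 4.23 (3.87 to 4.60) at 300 to 500 kb, 3.75 (3.37 to 4.15) at 500 to 1000 kb and 3.66 (3.23 to 4.12) above 1000 kb. The 4 long classes overlapped in their intervals. Without Gm20388 and Fgfr2, gene rows described below, the class above 1000 kb had 3.03 peaks per Mb (2.62 to 3.47), which then overlapped only with the class of 500 to 1000 kb among the long classes. With both kept in, genes of 100 to 200 kb overlapped with all but those of 300 to 500 kb. Over the bases outside exons and away from start sites, genes of 100 to 200 kb had 3.95 peaks per Mb, beside 4.28 at 200 to 300 kb and 3.93 at 500 to 1000 kb. No step in density was seen at 200 kb. The genes nearest to it, Pcbp3, Plcxd3 and 4930402H24Rik just inside and Morc1, Clec16a and Bckdhb just outside, all held 0 peaks.

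**Figure D1:**
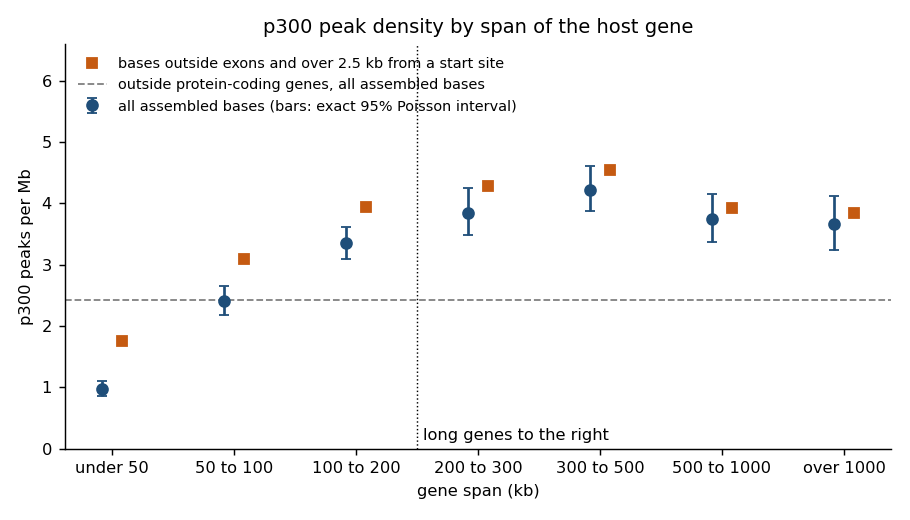
Peaks per Mb (vertical axis) by span of the host gene in kb (horizontal axis), over all assembled bases (circles with exact 95% Poisson intervals) and over bases outside exons and more than 2.5 kb from a start site (squares). The density grew from 0.979 per Mb under 50 kb to 3.35 at 100 to 200 kb and lay between 3.66 and 4.23 in the 4 classes of long genes. The dashed line is the density outside protein-coding genes, 2.42 per Mb.

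A peak in a long gene had another peak under 50 kb away more often than a peak outside genes. Against peaks in shorter genes the intervals overlapped. The classes also differ in density, and its part in these distances was not tested. The median distance to the nearest peak was 40.6 kb (37.9 to 44.4), against 48.6 kb (41.4 to 57.4) in shorter genes and 56.4 kb (51.9 to 61.3) outside genes, and the first interval overlapped with that of shorter genes but not with that outside genes. Another peak lay under 50 kb away for 55.6% (53.1 to 58.1) of long-gene peaks, 50.5% (47.7 to 53.3) of those in shorter genes and 47.7% (46.1 to 49.3) of those outside. At under 5 kb the shares were 11.9% (10.3 to 13.6), 13.5% (11.7 to 15.5) and 11.7% (10.7 to 12.8), with overlapping intervals. The long-gene peaks had a median width of 1030 bp (1015 to 1046), with quartiles of 875 and 1272 bp. The narrowest had 425 bp, in Xkr6, and the widest 4480 bp, in Tcf4, a basic helix-loop-helix factor that pairs with proneural proteins at E-boxes. These genes and those named below for a lowest or highest GC content were picked by that value.

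Peaks were spread over many long genes and piled up in a few. Of the 954 long genes, 549 (57.5%) held a peak and 405 held none. A single peak was found in 218 genes, 130 genes had 2, 112 had 3 or 4, 89 had 5 or more and 17 had 10 or more. The 10 genes with the most peaks held 12.1% of the long-gene peaks and the 50 with the most held 31.7%. Only 2 peaks lay in more than 1 long gene, while 38 also lay inside a shorter protein-coding gene and 29 inside a non-coding RNA gene.

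Each of the 22367 protein-coding genes was then asked whether it held more peaks than its share of the assembled genome predicts (one-sided exact binomial test, Benjamini-Hochberg adjustment over all genes). The test called 49 genes, 0.219% of those tested, of which 24 were long, 2.52% of the long genes. A short gene is expected to hold so few peaks that it needs a tight cluster to pass, so the shares of long and of short genes called are not on one footing. The test treats peaks as independent draws, and since they lie in clusters its p-values, here and below, are too small. With peaks under 5 kb apart joined it called 15 long genes. The 24 called long genes had 6 peaks or more, and 14 of them had 10 or more. The same test in the opposite direction could call no gene at this number of peaks, since even with 0 peaks in every gene the smallest adjusted p would be 0.226 (exact binomial test). It called 0 genes (0%), which says nothing about depletion, and 2 genes, both long, had an unadjusted p under 0.05. The plot of peaks against span shows them at its lower right.

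**Figure D2:**
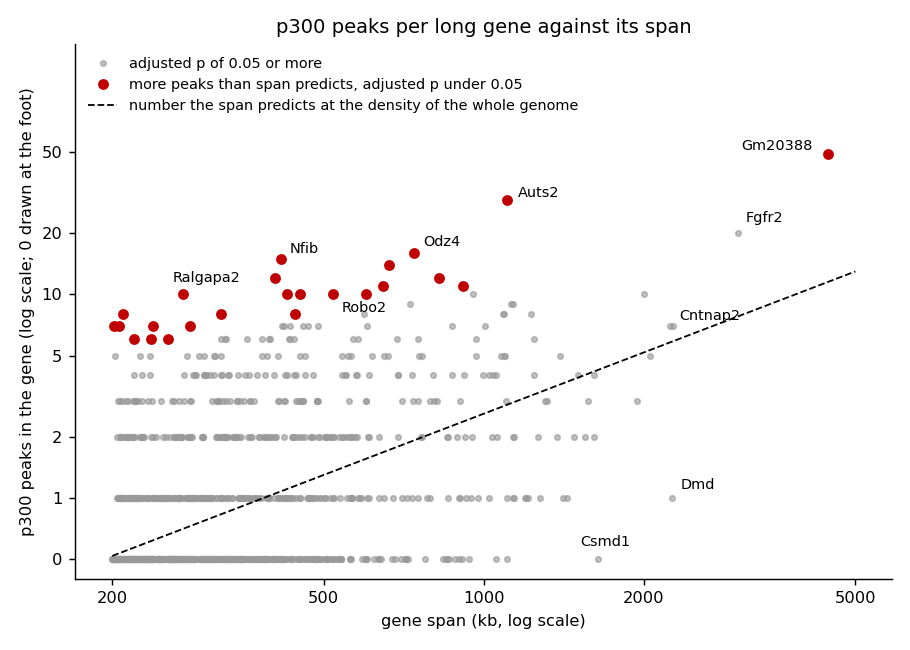
Number of peaks in each of the 954 long genes (vertical axis, log scale, with 0 drawn at the foot) against gene span in kb (horizontal axis, log scale). The dashed line is the number predicted by the density of the whole genome, and filled red points are the 24 long genes called for more peaks. Auts2, with 29 peaks, and Nfib, with 15, stand far above the line, and Dmd, with 1, and Csmd1, with 0, stand below it.

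Transcription regulators were the most densely marked of the lists of long genes. The lists were chosen with earlier results of these data known, so this order is not independent of the peaks. They are also not complete: Pbx3, a called homeodomain gene, is not among the transcription regulators. The list of transcription regulators held 52 long genes, and 41 of them (78.8%) had a peak, beside 57.5% of all long genes. The share of genes with a peak grew with span, from 46.9% at 200 to 300 kb to 94.2% above 1000 kb. The lists were not matched for span, so their shares with a peak and medians per gene also depend on how long their members are. They had 9.14 peaks per Mb against 3.91 for all long genes, and a median per gene of 5.87 against 2.32. The test called 5, beside 24 of all 954 long genes (2.52%): Auts2, Nfib, Npas3, Zfp536 and Foxn3. The call of Npas3 was lost when only peaks of median width or more were counted (adjusted p = 0.0966 in the exact binomial test). That of Foxn3 was lost in 3 of 5 alternatives, with adjusted p of 0.0528 to 0.201 in the exact binomial test. The study itself singled out Auts2 and Nfib from this peak list, so they are not independent evidence of the direction. Without them the list had 7.65 peaks per Mb. Members with 0 peaks included Zfhx3, Rarb, Mecom, Zfpm2 and Hdac9.

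Auts2, a nuclear regulator of neurodevelopment that acts with Polycomb proteins, lies on the minus strand at chr5:131913205-133019214 and held 29 peaks where 2.87 were predicted. The ratio was 10.1 (6.78 to 14.5), with an adjusted p of 2.75e-15 in the exact binomial test. The peaks ran along nearly the whole gene, from 23.8 to 1078 kb after the start site, with 5 in the first intron, 5 in the second and 19 in later introns. The densest 100 kb held 6. For the 16 peaks farthest from the start, the start site of the neighbouring Wbscr17, an N-acetylgalactosaminyltransferase gene, was nearer than that of Auts2.

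Nfib, a member of the nuclear factor I family needed for cortical neurons and glia to mature, lies at chr4:81936077-82351654 on the minus strand. It held 15 peaks, 13.9 times the predicted 1.08 (7.80 to 23.0), with an adjusted p of 6.23e-09 in the exact binomial test. Only 5 of them lay in introns of the main transcript. The other 10 lay before its start site, at -199.8 to -7.44 kb, inside the gene row.

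The family member Nfia, which drives the switch to glial fate, lies at chr4:97439425-97868605 and held 6 peaks, an excess that did not pass the test (adjusted p = 0.269 in the exact binomial test). Its start site lies close to that of E130114P18Rik, a gene known only by its clone name that runs the other way. E130114P18Rik held 8 peaks in 210 kb where 0.544 were predicted, 14.7 times as many (6.35 to 29.0), with an adjusted p of 0.000262 in the exact binomial test. For all 8 the start site of Nfia was nearer than that of the host, and for all 6 peaks of Nfia that of E130114P18Rik was nearer, since the start sites lie less than 1 kb apart.

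Npas3, a basic helix-loop-helix PAS factor of neural progenitors, held 12 peaks between 43.9 and 804 kb after its start site, 5.62 times the predicted number, with an adjusted p of 0.00241 in the exact binomial test. Zfp536, a zinc finger repressor of neuronal differentiation, held 10, all of them nearest to its own start site. Foxn3, a forkhead repressor, held 6. Sox5, which sets the identity of deep-layer projection neurons, also held 10 peaks, but over 954 kb, and did not pass (adjusted p = 0.0881 in the exact binomial test). Meis2 held 5 peaks in 203 kb, 9.52 times the predicted number, and did not pass either (adjusted p = 0.0832 in the exact binomial test). Sox6 had 6 peaks, the forkhead genes Foxp2 and Foxp1 had 5 and 2, and Zbtb20, a zinc finger repressor, had 2, the number its span predicts.

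Among long genes of axon guidance and migration, 24 of 28 (85.7%) held a peak, beside 57.5% of all long genes. They had 6.10 peaks per Mb and a median per gene of 4.50. The test called 2 of the 28, Robo2 and Epha3, beside 2.52% of all long genes. Robo2, a receptor for the Slit repellents, lies at chr16:73892551-74412070 and held 10 peaks, 7.43 times the predicted number (3.56 to 13.7), with an adjusted p of 0.00162 in the exact binomial test. The first 2 lay in its first intron and the other 8 in its second, up to 362 kb from the start site. Epha3, an ephrin receptor, held 8 peaks, 4 in the second intron and 4 further on, with an adjusted p of 0.00241 in the exact binomial test, and its call was lost among wide peaks (adjusted p = 0.363). Dcc, the netrin receptor, also held 8, every one of them in its first intron, which spans 395 kb, but over a gene of 1092 kb they did not pass. Dab1, the adaptor of Reelin signalling, held 9 and Reln itself 2, and Erbb4, a neuregulin receptor of migrating interneurons, held 5. Ntng1, Sema3d, Srgap3 and Unc5c held 0.

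Of 51 long cell adhesion genes 43 (84.3%) held a peak, beside 57.5% of all long genes. These 51 genes covered 41.5 Mb, and the share with a peak grows with span. Their density was 4.09 peaks per Mb beside 3.91 for all long genes, with a median per gene of 3.63 beside 2.32. The test called 1 of the 51, beside 2.52% of all long genes, so this count does not set the list apart. The called gene was Odz4, a teneurin that links neurons across the synapse. It held 16 peaks where 1.92 were predicted, a ratio of 8.35 (4.77 to 13.6), with an adjusted p of 1.16e-06 in the exact binomial test. They lay 173 to 658 kb from the start site, 15 of them in later introns, and the 9 farthest from it were nearer to the start of Nars2. The immunoglobulin-domain adhesion gene Opcml held 9 peaks, the teneurin Odz2 held 8 and the cadherin Cdh4 held 7. Cntnap2, a neurexin relative and one of the longest genes, held 7 over 2241 kb, 1.21 times the predicted number, of which 1 lay in the 594 kb of its first intron.

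Neurotransmitter receptors and ion channels fell below the long genes as a whole in density. Of 44 long members 24 (54.5%) held a peak, with 2.36 peaks per Mb, a median per gene of 1.73 and 0 called. Cacna2d1, a calcium channel subunit, led with 6, followed by the glutamate receptor genes Grid1 with 5 and Grik4 with 4. The glutamate receptor genes Grin2a, Gria1, Gria4, Grm5 and Grm8 held 0. Cytoskeletal and scaffold genes had 20 of 27 members with a peak, 3.58 per Mb and 0 called. The test called 2.52% of all long genes. At that share lists of 44 and 27 genes hold few calls or none, so 0 called does not set them apart. In that list Frmd4a held 8 peaks, Pard3b, a polarity protein, 7, and Ank3, the ankyrin of the axon initial segment, 1.

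Genes of common fragile sites are among the longest known. Of 13 in the list 12 (92.3%) held a peak, beside 57.5% of all long genes and 94.2% of those above 1000 kb. Their density was 2.67 peaks per Mb. The test called 1 of the 13, beside 2.52% of all long genes. Wwox, an oxidoreductase gene, was called, with 11 peaks, 4.65 times the predicted number (adjusted p = 0.0201 in the exact binomial test). Its call was lost with neighbouring peaks joined (adjusted p = 0.187, exact binomial test) and with wide peaks (0.471). Macrod2 held 10 over 1998 kb, Lrp1b 5 and Fhit 2. Genes whose products work in muscle, epithelium or sensory tissue had the fewest: 10 of 22 held a peak, with 1.65 per Mb. Ttn, Neb, Pkhd1 and Esr1 held 0. The test called 0 of the 22, which at 2.52% of all long genes does not set the list apart. Some genes stand in more than 1 list, such as Dmd and Dlg2. The 721 long genes in no list had 3.59 peaks per Mb, and 379 of them (52.6%) held a peak.

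The longest gene without a peak was Csmd1, a gene of complement-control domains expressed in neurons, which spans 1643 kb and was predicted to hold 4.26 (unadjusted p = 0.0141 in the exact binomial test). It was followed by Frmpd4, Gpc6, Sntg1 and Dpp6. Dmd, the dystrophin gene, held 1 peak where 5.85 were predicted (unadjusted p = 0.0197 in the exact binomial test). Both had an adjusted p of 1. Dmd and Frmpd4 are on the X chromosome, where 13 of 45 long genes held a peak, at 1.03 per Mb, against 59.0% and 4.06 per Mb on the autosomes. The test predicts from the density of the whole genome, 2.59 per Mb. The low numbers in Dmd and Frmpd4 therefore cannot be told apart from the low density of their chromosome. That low density is not particular to long genes. Leaving out X and Y also raised the density in shorter genes, from 2.14 to 2.21 per Mb, and outside genes, from 2.42 to 2.60. Among the autosomes the density in long genes ran from 2.35 per Mb on chromosome 10 to 5.68 on chromosome 11.

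Among the 3 genes with the most peaks, Gm20388 and Fgfr2 have gene rows that reach over many other genes. Gm20388 is a gene model of 4435 kb at chr8:122434741-126869622 whose first intron covers 98.9% of it. It held 49 peaks where 11.5 were predicted, with an adjusted p of 1.99e-12 in the exact binomial test, and all 49 lay in that intron. None of them had the start site of Gm20388 as the nearest: 16 were nearest to Gse1 and 12 to Fam92b, and 15 lay inside another protein-coding gene. The study had already singled out the gene desert between Gse1 and Fam92b from this peak list, so that part is not a new locus. The row of Fgfr2, a fibroblast growth factor receptor of cortical progenitors, spans 3009 kb, but its main transcript spans 102 kb and held 1 of its 20 peaks. Results that rest on them are given without both where they change.

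In several called genes a large share of the peaks was nearer to the start site of a neighbour than to that of the host. Ralgapa2, which encodes a subunit of a GTPase-activating complex, held 10 peaks in 272 kb, 14.2 times the predicted number (6.80 to 26.1), with an adjusted p of 1.27e-05 in the exact binomial test. For 9 of them the nearest start site was that of Insm1, a zinc finger factor of basal progenitors, 35.2 to 141 kb away, and 8 of the 10 lay within 74.2 kb. Cdkal1, a tRNA-modifying enzyme, held 14, 8.14 times the predicted number, with an adjusted p of 1.27e-05 in the exact binomial test. The 5 farthest from its start were nearest to Sox4, a factor of newborn neurons, 242 to 418 kb away. Sox4 too was singled out by the study from this peak list. Of the 11 peaks in Wwox, the 4 farthest from its start were nearest to Maf, a factor of cortical interneurons, at 533 to 573 kb. Slc39a11, a zinc transporter gene, held 12, with an adjusted p of 5.27e-06 in the exact binomial test, and 9 of them were nearest to its own start.

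Further called genes were of mixed function, and those other than Kalrn, Arhgap15 and Msi2 were named after their values were seen. Kalrn, an exchange factor for small GTPases in dendritic spines, held 10 peaks, and Arhgap15, a GTPase-activating gene, held 11. Agap1, a regulator of membrane traffic, held 8, and Sdccag8, a gene of the centrosome, held 7 within 73.3 kb. Msi2, an RNA-binding protein of neural stem cells, held 10, all in later introns, and only 3 of them were nearest to its own start site. Pbx3, a homeodomain partner of Hox and Meis proteins, held 7, 13.4 times the predicted number (5.39 to 27.6), and all 7 lay in its second intron. Also called were 4930529M08Rik with 7 peaks, and Igsf21 and Ldlrad3 with 6 each. Each of these 9 calls was lost in an alternative. With peaks under 5 kb apart joined, the calls of Pbx3 and Sdccag8 were lost (adjusted p = 0.444 and 1 in the exact binomial test). With wide peaks, those of Kalrn, Msi2 and Igsf21 were lost (1, 0.109 and 0.145, exact binomial test). In both settings those of Arhgap15, Agap1, Ldlrad3 and 4930529M08Rik were lost, with adjusted p of 0.0685 to 1 in the exact binomial test.

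Over all long genes, the start site of the host was the nearest protein-coding start for 915 peaks, 58.6% (56.1 to 61.1), although positions spread evenly over the long genes would give 62.6%. Without Gm20388 and Fgfr2 the shares were 61.3% and 63.7%. The other 646 peaks were nearest to the start sites of 318 other genes. Beside those already named, 5 peaks in Npas3 were nearest to Egln3, an oxygen sensor, and 5 in Myo1d to Cdk5r1, the activator of a kinase of neuronal migration. In Macrod2, 5 were nearest to Flrt3, a guidance and adhesion protein, and 4 in Pard3b were nearest to Nrp2, a semaphorin receptor. In Cadps, 4 of 5 were nearest to Fezf2, a factor that specifies subcerebral projection neurons, at 43.2 to 185 kb. These neighbours outside the rule for named genes were picked after the values were seen, and a nearest start site does not show which gene a peak acts on. Axon guidance genes had their own start nearest for 80.5% (70.6 to 88.2) of 87 peaks, transcription regulators for 64.8% (57.8 to 71.4) of 199 and fragile-site genes for 18 of 50 (22.9 to 50.8%).

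**Figure D3:**
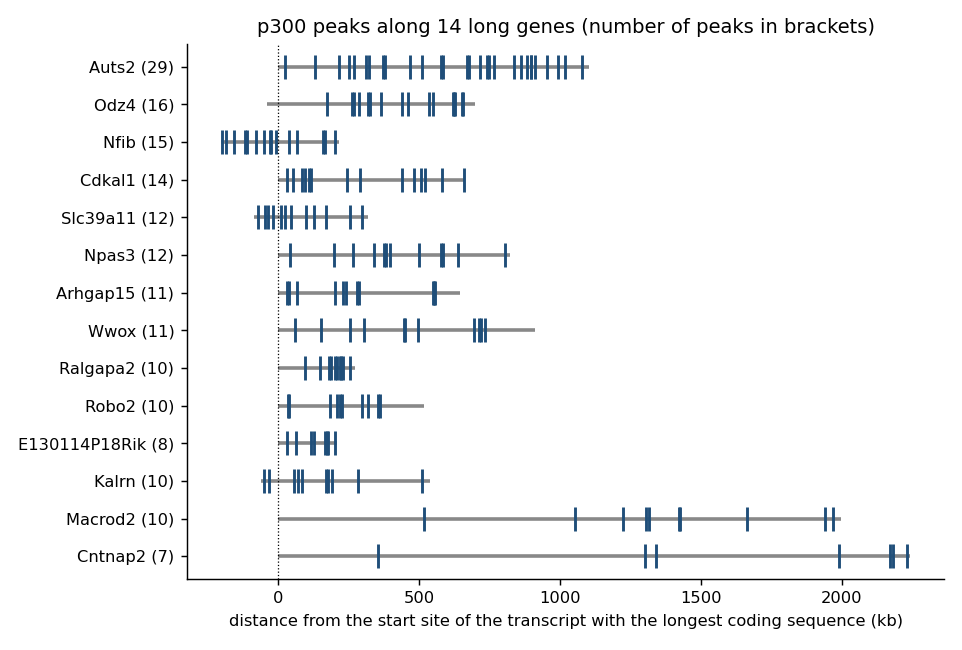
Each row is a long gene (grey line) with its peaks (blue ticks) by distance in kb from the start site of the main transcript, and the number of peaks in brackets. The 29 peaks of Auts2 run along its whole length, those of Ralgapa2 crowd at its far end, and 10 of the 15 in Nfib lie before the start site of that transcript.

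Within their host genes the peaks were spread nearly as the sequence is in the first and later introns, while the second intron held more than its share. The first intron held 319 peaks, 20.4% (18.5 to 22.5), and 20.5% of long-gene sequence. Without Gm20388 and Fgfr2 these were 18.1% (16.2 to 20.1) and 19.7%. The second intron held 260 peaks, 16.7% (14.8 to 18.6), beside 13.8% of the sequence, and later introns held 842, 53.9% (51.4 to 56.4), beside 55.4%. No midpoint lay in an exon of these transcripts, since the authors removed such peaks, and 140 lay in the gene row outside the transcript. Taken over all GENCODE transcripts, which differ from the gene set the authors used, 36 peaks (2.31%) overlapped an exon and 63 (4.04%) lay within 2.5 kb of a start site.

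The median distance from the host's start site was 202 kb (191 to 212), and for positions spread evenly over the same genes it was 198 kb. Without Gm20388 and Fgfr2 these were 193.5 and 194.5 kb. Under 10 kb from the start lay 23 peaks, 1.47% (0.936 to 2.20), beside 2.0% of the bases outside exons and away from start sites. Between 10 and 50 kb the shares were 10.1% of peaks and 10.8% of those bases. With each gene cut into 10 equal parts from start to end, part 1 held 7.82% (6.53 to 9.26) of the peaks and 9.56% of those bases, and part 3 held 7.69% (6.41 to 9.12) and 10.3%. The most, 11.7% (10.1 to 13.4), lay in part 7, with 10.1% of the bases. The plot of position within the gene shows the low parts 1 and 3 and values above the bases from part 6 to part 9.

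**Figure D4:**
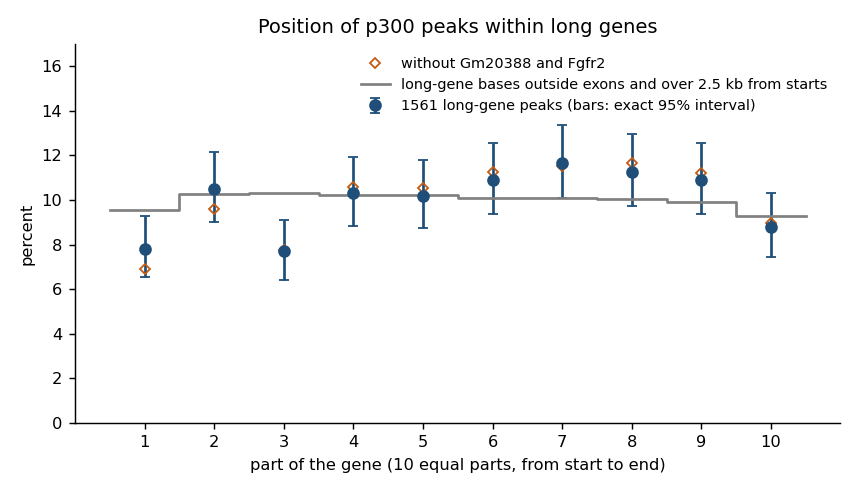
Percent of the 1561 long-gene peaks in each of 10 equal parts of the host gene from start to end (circles with exact 95% intervals; open diamonds leave out Gm20388 and Fgfr2), beside the percent of long-gene bases outside exons and more than 2.5 kb from a start site (grey steps). The peaks fall below the bases in part 1, at 7.82%, and in part 3, at 7.69%, and reach 11.7% in part 7.

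The sequence of long-gene peaks was richer in A and T than that of other genic peaks. Their median GC content was 43.9% (43.5 to 44.3), against 48.0% (47.6 to 48.5) in shorter genes and 45.0% (44.7 to 45.3) outside genes. It ranged from 26.7%, for a peak in Gm7247, to 74.7%, for one in Chd9. The peaks of Gm20388 had a median of 57.0%, those of Auts2 45.0% and those of Robo2 38.6%. By list, the medians were 44.4% (43.6 to 45.1) for transcription regulators, 42.8% (41.8 to 43.9) for cell adhesion and 39.8% (38.2 to 41.8) for axon guidance.

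The motif matches differed between the classes too. Homeodomain sites TAATTA were found in 51.5% (49.0 to 54.0) of long-gene peaks, 39.7% (37.0 to 42.4) of those in shorter genes and 47.0% (45.4 to 48.6) of those outside. E-boxes CAGCTG were found less often in long-gene peaks than in those of shorter genes, with 54.6% (52.1 to 57.1), 62.8% (60.1 to 65.5) and 54.9% (53.3 to 56.5), and Nfi full sites had 5.57% (4.49 to 6.83), 8.11% (6.67 to 9.75) and 6.66% (5.89 to 7.50), with intervals that overlap slightly. For the E-box CAGATG the shares were 73.2% (70.9 to 75.3), 77.2% (74.8 to 79.4) and 74.7% (73.3 to 76.1), with intervals that overlap. The Rfx motif GTTGCC was found at nearly the same share in each, 34.9%, 33.8% and 34.5%. Since TAATTA is made of A and T and the E-boxes are not, the GC content moves with these shares, and its part in them was not tested.

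Against 357787 windows of 1030 bp without a peak, tiled over the same long genes, the peaks had more of the E-boxes, homeodomain and Nfi sites. Nfi full sites stood in 1.39% of windows and were 4.02 times as frequent in peaks (3.24 to 4.92). CAGCTG stood in 30.9% of windows (ratio 1.76), TAATTA in 34.2% (1.5), ATGCAAAT in 8.94% (1.53), GTTGCC in 24.7% (1.42) and CAGATG in 56.9% (1.29). GGTGTGA stood in 12.5% of windows (ratio 1.27, 1.13 to 1.42). The Sox motifs and the AP-1 motif were as frequent in windows as in peaks, with 64.9% for ACAAAG (ratio 1.02, 0.984 to 1.06), 51.5% for ACAATG (1.00, 0.956 to 1.05) and 28.4% for TGANTCA (1.04, 0.964 to 1.13). The windows had a GC content of 41.1%, lower than the peaks, and were not matched for it, so its part in these ratios was not tested. Windows had the median width of the peaks and were not matched to each peak in length. At equal length, in the middle 500 bp, the ratios were 2.27 for CAGCTG, 1.88 for TAATTA, 1.69 for CAGATG, 1.03 for ACAAAG, 0.959 for ACAATG and 0.983 for TGANTCA. Motifs can overlap in the sequence and each was counted on its own.

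**Figure D5:**
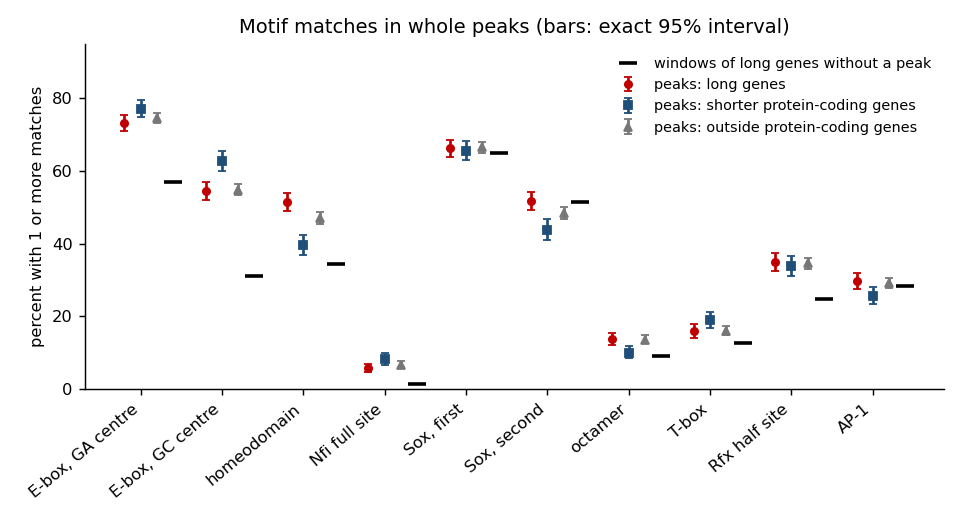
Percent of whole peaks with 1 or more matches (vertical axis) for each of 10 motifs (horizontal axis; GA centre is CAGATG, GC centre CAGCTG, first Sox ACAAAG, second Sox ACAATG), in long genes, shorter genes and outside genes, with exact 95% intervals, and of peak-free windows of long genes (black bars). Homeodomain matches are at 51.5% in long-gene peaks and 39.7% in peaks of shorter genes, both above the 34.2% of windows, while the Sox motifs lie close to the windows.

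The motif content also varied from host to host. In Auts2, 24 of 29 peaks held the E-box CAGATG, 17 CAGCTG and 15 TAATTA. In Slc39a11, CAGCTG stood in 11 of 12 peaks, and in Arhgap15 TAATTA stood in 8 of 11. Nfi full sites stood in 7 of the 49 peaks of Gm20388, 2 of 12 in Slc39a11 and 1 of 15 in Nfib itself. By list, axon guidance genes had TAATTA in 58.6% (47.6 to 69.1) of 87 peaks and transcription regulators in 51.3% (44.1 to 58.4) of 199. For CAGCTG the shares were 44.8% (34.1 to 55.9) and 55.8% (48.6 to 62.8), and both pairs of intervals overlapped.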

How the data were processed

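The authors' alignment was made by ELAND on mm9 (up to 2 mismatches, multiply placed reads discarded) and their peak list by MACS (version 1.4 in the submitters' processing notes) with the input as control. The list is limited to distal sites: by UCSC knownGene, exons and the 2.5 kb around start sites are left out, as are places of doubtful mapping. The deposited list holds chromosome, start, end and number of each of the 6629 peaks, with no score or count, so depth is unknown. Positions were computed on NCBIM37, the same assembly as mm9, with GENCODE vM1, in Python 3.11.15 with numpy 2.4.6 and scipy 1.17.1, and drawn with matplotlib 3.10.9. A peak belonged to a gene that held its midpoint, and where long genes overlapped, positions were taken in the longest. Introns and start sites were those of the main transcript, whose coding sequence is the longest. Sequence shares were counted per base, and start-site distances each 1 kb. Shares have exact Clopper-Pearson and densities exact Poisson 95% intervals. Genes were tested with the exact binomial test, adjusted p under 0.05 being called. The code of the test was run on counts drawn for each gene at its predicted rate, with peaks added to some genes. Those counts do not cluster as the peaks do, so this run cannot show how the test behaves on clustered peaks.

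The long genes, lists and tests were chosen with earlier results of these data known. Genes were named if among the 15 with the most peaks, the 10 with the smallest p, the 5 longest without a peak or the 4 leading members of each list, or on a list of 18 genes of cortex, adhesion or fragile sites. Other called genes, neighbours and list members without a peak were named after their values were seen, and 1 called gene is not reported here. Alternatives were other span limits, joined or wide peaks, other base sets and transcripts, and gene models left out.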

Additional observations from a re-analysis of the deposited data

How the results depend on the processing

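No paired analysis was possible because there is 1 p300 library and 1 input library. Of 217 alternative values, 163 were counted as unchanged, 33 moved, 21 gene calls were lost and 0 turned direction. Unchanged meant within the interval or on the same side of the threshold. For density ratios and numbers of called genes it meant within a set margin of the main value. The 163 include the test for fewer peaks, which could call no gene in the main setting. Where a value moved, the cause was not tested unless the alternative shows it by its construction. The share of genic peaks in long genes was 78.0%, 41.2% and 22.6% with limits of 100, 300 and 500 kb, 57.9% for wide peaks (median width or more), and 52.8% by transcript span, which was added after seeing the data. The density in long genes was 4.2 per Mb without exons and start sites (ratio to shorter genes 1.4), 3.60 with peaks under 5 kb apart joined, and 2.05 for wide peaks (ratio 2.04). The number of called long genes was 15 after joining and 14 with wide peaks, the latter including 13 of the 24. Of the 24, 10 stayed called in every alternative that tested them, among them Auts2, Nfib, Odz4, Slc39a11, Ralgapa2, Cdkal1 and Robo2. Leaving out Gm20388 and Fgfr2, also added later, gave 18.1% of peaks in the first intron and 61.3% nearest to their own start. The median distance to the start site was 218 kb in the transcript with the longest span, beside 208 kb for the sequence. The median GC content was 44.5% with a limit of 100 kb and 42.8% with 500 kb. After joining, the median width was 1049 bp and the nearest peak 51.8 kb away. In the middle 500 bp of peaks the motif shares were 56.7% for CAGATG, 37.9% for CAGCTG, 35.2% for TAATTA, 4.10% for Nfi, 41.1% for ACAAAG, 28.3% for ACAATG, 7.88% for the octamer, 8.46% for the T-box motif, 19.7% for the Rfx motif and 14.7% for AP-1, and Nfi sites were 6.10 times as frequent as in windows of 500 bp. In genes of 500 kb or more the shares were 70.3% for CAGATG, 51.0% for the other E-box, 4.23% for Nfi and 31.1% for the Rfx motif. GC content was not run for joined peaks, nor the nearest start site for other transcripts. With 1 library and no peak heights, nothing here measures how the list would vary in a second experiment.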
